A study of Mus musculus with 10 samples.

Results

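The T cell receptor complex and the proteins that act first beneath it were followed here through 10 genes: the CD3 chain genes Cd3d, Cd3e, Cd3g and Cd247, the coreceptor genes Cd4, Cd8a and Cd8b1, the kinase genes Lck and Zap70, and the adaptor gene Lat. Members were taken as all probe sets whose annotated symbol is one of these genes, and each gene is represented by its brightest one, judged by the mean of the 10 arrays. The annotation gave 15 probe sets for 9 of the 10 genes, and Lck, which had none in it, was not analysed here. Of 17097 genes with a probe set, 11037 were bright enough to be tested, and these include 8 of the 9 members. Cd8b1 was too dim.

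The T cell receptor binds antigen but has no signalling tail of its own, and it reaches the cell surface only with the CD3 gamma, delta, epsilon and zeta chains, which carry the tyrosine motifs of the complex. When the coreceptor CD4 or CD8 binds the MHC molecule it brings the kinase Lck to the complex, Lck phosphorylates those motifs, and Zap70 docks on them. Zap70 then phosphorylates Lat, a membrane scaffold that gathers the enzymes leading to calcium, Ras and protein kinase C signalling.

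The study profiled spleen cells of DBA/1 mice on Affymetrix mouse arrays to find the transcripts that vaccination with dendritic cells changes in CD4+ cells and in 2 subsets of them. The CD4+ group of naive mice (n = 2 arrays) received no cells. The CD4+ group of injected mice (n = 2), the CD49b+ group (n = 3) and the CD25+ group (n = 3) came from mice that received 500000 immature dendritic cells by intraperitoneal injection 7, 5 and 3 days before they were killed. CD4+ cells were enriched by negative bead selection, stained for CD4, CD49b (an integrin chain) and CD25 (a chain of the interleukin 2 receptor) and sorted. Cells of several mice were pooled for a sort, and no genotype or age is given in the labels. The labels do not say that replicates came from separate pools, so p-values measure only how far these samples spread, and that spread may be technical. CD49b+ and CD25+ cells were sorted from injected mice only, and the labels do not say whether the CD4+ groups still held them. Values are the authors' normalized log2 levels, on which 1 unit is a doubling (2-fold), and levels of different probe sets are put together only in sums over marker lists.

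Arrays of a group correlated at 0.988 or above, and the number of arrays limits the precision. Array medians of the log2 level were 4.79 to 4.81 in the 4 CD4+ arrays and 4.61 to 4.65 in the 6 CD49b+ and CD25+ arrays. The 3′ minus 5′ difference of the Gapdh control probe sets, a sign of RNA quality or amplification, in the CD4+ groups was 0.02 ± 0.05 (SD, n = 2) for naive and 0.19 ± 0.09 (n = 2) for injected mice. The difference reached 0.46 ± 0.23 (n = 3) in CD49b+ cells and 0.52 ± 0.12 (n = 3) in CD25+ cells. The spiked poly-A controls averaged 8.66 on CD49b+ array 3 and 8.51 on CD25+ array 3, against 5.52 to 6.98 on the other 8. These values move with the subset comparisons, and their part in the results was not tested beyond leaving those 2 arrays out.

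The members described a T cell sample that was CD4-bearing and poor in CD8. Cd3d, Cd3e, Cd3g, Cd247, Cd4, Zap70 and Lat lay above the array median on all 10 arrays. Cd8a, which encodes the alpha chain of CD8, lay above it on 3 of 10 arrays and Cd8b1, the beta chain gene, on 0. Of 10 T cell markers with a probe set, only Tcra lay under the array median on all arrays. Markers of other cell types were partly present. Of 9 natural killer, 8 B cell and 12 myeloid markers, those under the array median on every array were Klra8 and Klrc1 of the natural killer list, Ms4a1, Pax5, Ighm and Ebf1 of the B cell list, and Itgam, Lyz2, Cd14 and Xcr1 of the myeloid list. The others lay above it on at least 1 array.

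**Figure D1:**
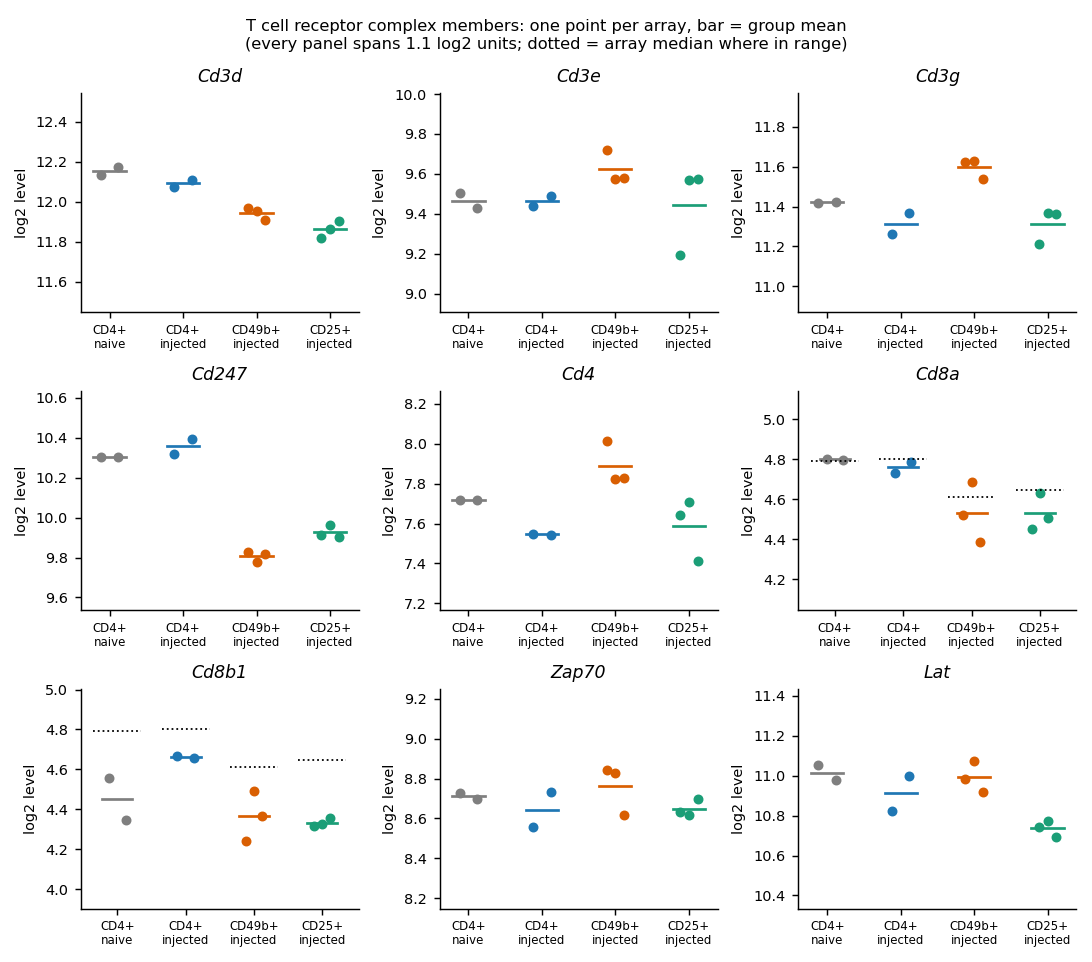
The log2 level of each of the 9 members (vertical axis, every panel spanning the same range) on each array, with the group mean as a bar and the array median dotted where it falls in range. Cd247 is at or above 10.30 on the 4 CD4+ arrays and at or below 9.96 on the 6 CD49b+ and CD25+ arrays, while Cd8b1 stays under the array median throughout.

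The CD3 chains did not move as a block. Cd247, the zeta chain, was the member that varied most: its 4 group means spanned 0.55, more than the span of 61.7% of tested genes. Cd3d and Cd3g, the delta and gamma chains, spanned 0.29 and 0.28, and Cd3e, the epsilon chain, spanned 0.18, all under the median span of all genes (0.45). Zap70 had the narrowest span of the members at 0.12, and only 4.05% of genes spanned as little or less. Cd4 spanned 0.34, Lat 0.28 and Cd8a 0.27.

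The promoters of the 3 chains whose differences passed a test are shown because Cd3g and Cd3d are neighbours while Cd247 lies on another chromosome. Sequences are RefSeq's, in the mouse build GRCm38.p6, from 250 bases before to 50 bases after the annotated start, written 5′ to 3′ along the gene's strand. Capitals mark the E-box CAGGTG, searched on both strands, so that it can read CACCTG. The Cd247 window is chr1:165788431-165788730 (+ strand), the Cd3g window chr9:44980382-44980681 (- strand) and the Cd3d window chr9:44981536-44981835 (+ strand).
Cd247: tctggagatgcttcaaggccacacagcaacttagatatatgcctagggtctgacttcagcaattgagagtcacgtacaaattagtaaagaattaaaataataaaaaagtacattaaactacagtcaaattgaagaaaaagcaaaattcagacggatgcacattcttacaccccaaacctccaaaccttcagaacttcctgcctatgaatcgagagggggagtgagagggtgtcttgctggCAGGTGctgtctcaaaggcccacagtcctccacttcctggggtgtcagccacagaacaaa
Cd3g: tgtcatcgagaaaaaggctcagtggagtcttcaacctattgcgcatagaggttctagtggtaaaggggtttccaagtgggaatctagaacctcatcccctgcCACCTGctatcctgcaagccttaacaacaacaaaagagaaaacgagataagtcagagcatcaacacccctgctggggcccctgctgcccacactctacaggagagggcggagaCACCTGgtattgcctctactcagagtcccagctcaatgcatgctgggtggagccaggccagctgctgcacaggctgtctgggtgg
Cd3d: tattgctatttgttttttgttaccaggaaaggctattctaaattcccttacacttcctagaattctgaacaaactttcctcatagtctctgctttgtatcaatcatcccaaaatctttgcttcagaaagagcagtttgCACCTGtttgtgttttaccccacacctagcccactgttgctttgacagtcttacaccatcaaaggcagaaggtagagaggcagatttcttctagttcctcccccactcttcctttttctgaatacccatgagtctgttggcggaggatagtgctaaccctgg
The start sites of Cd3g and Cd3d lie 1355 bases apart and point away from each other. CAGGTG occurred in 4 of 4 windows of the CD3 chain genes, Cd3e included, with 5 matches in all, and in 20.2% of the 32851 promoter windows of the table. AGGAAG, the core read by Ets factors, occurred in 3 of 4 (35.4% of all windows), CAGCTG in 1 of 4 (16.3%) and TGTGGT, a Runx core, in 0 of 4 (16.8%). CAGGTG and CAGCTG differ in a single base, so that no site counts as both. A match only describes the letters, and the arrays do not measure binding. The promoter table held 8 of the 10 members and lacked Cd4 and Cd8b1.

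The comparison of CD4+ cells of injected and naive mice asks what the injections changed in the whole CD4+ population. None of the 8 tested members was called between them, and on the main probe sets none differed by more than 0.17 on the log2 scale. In limma's moderated test with Benjamini-Hochberg adjustment over all genes, 0 of 8 members passed an adjusted p of 0.05, where 1.39% of all tested genes did (0.0272% higher and 1.36% lower in injected mice). At an unadjusted p under 0.05 the members still counted 0, against 1365 genes. The number of genes called, 153, became 15 to 154 with an array left out, 0 with the 2 groups alone and 377 with a replicate block, while that of the members was 0 in each. The median absolute difference of the members was 0.06, against 0.11 over all genes.

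Cd4 had the widest difference there. Its log2 level was 7.72 on both arrays of naive mice and 7.55 and 7.54 on those of injected mice. No array of one group reached the other, and Cd4 differed by -0.17 ± 0.11 (SE) with an adjusted p of 0.622 and a 95% confidence interval of -0.42 to 0.08. Cd247 differed by 0.05 ± 0.08 (adjusted p = 0.883), Cd3g by -0.11 ± 0.09 and Lat by -0.10 ± 0.09. The groups did not overlap for 5 of 8 members, a share to be read beside 48.5% of all genes. The 95% intervals reach down to -0.42 (Cd4) and up to 0.29 (Cd3e), and changes within the interval of a member are not excluded. They were narrower for Cd3d (-0.24 to 0.11) and Cd247 (-0.12 to 0.23).

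CD49b+ cells were compared with CD4+ cells of the same kind of mice to see what marks that subset. Cd247 was 1.46-fold lower in CD49b+ cells, Cd3g 1.22-fold higher and Cd4 1.27-fold higher, and the other 5 tested members did not pass. This is 3 of 8 members, where 53.4% of all tested genes were called (29.9% higher and 23.5% lower), so the members were called no more often than genes at large. Their median absolute difference was 0.19 against 0.33 over all genes, and 6 of 8 moved less than the all-gene median.

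The log2 level of Cd247 was 10.30 and 10.31 in naive CD4+ cells, 10.32 and 10.40 in CD4+ cells of injected mice, and 9.83, 9.78 and 9.82 in CD49b+ cells. All CD49b+ arrays lay below all 4 CD4+ arrays. Against CD4+ cells of injected mice the difference was -0.55 ± 0.07 (adjusted p = 0.000171, limma; 95% interval -0.71 to -0.39), which leaves 68.3% of the CD4+ level. In bulk samples such as these, fewer cells that express a gene and less RNA of it per cell cannot be told apart. The call held in 12 of 12 alternative settings and with each of the 10 arrays left out in turn, with values from -0.74 to -0.36.

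Cd3g moved the other way from its partner chain. Its log2 level was 11.26 and 11.37 in CD4+ cells of injected mice, 11.62, 11.63 and 11.54 in CD49b+ cells, and 11.42 on both arrays of naive mice. Every CD49b+ array was above every CD4+ array. The difference of 0.28 ± 0.08 passed (adjusted p = 0.0156, limma) but lost its call without the first CD4+ array of injected mice (0.23, adjusted p = 0.114), after quantile normalization (0.15, adjusted p = 0.128) and after centring each array on the median of the genes tested (0.09, adjusted p = 0.36). That centring and a centring on the median of all probe sets shift the median of all genes in this comparison to -0.16 and 0.22, from 0.03 as deposited, and the share of called genes that were higher from 56.0% to 33.3% and 78.3%.

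Because an overall scaling of an array cancels in the difference of 2 of its values, Cd3g minus Cd247 was also taken within each array, a measure chosen after the data were seen. Only its change between groups can be read, since levels of 2 probe sets are not on a common scale. It was 1.12 on both arrays of naive mice, 0.95 and 0.97 in CD4+ cells of injected mice, 1.79, 1.85 and 1.72 in CD49b+ cells, and 1.30, 1.40 and 1.46 in CD25+ cells. The 3 cell groups of injected mice do not overlap, with CD49b+ highest and CD4+ lowest. The difference from CD4+ cells was 0.83 in CD49b+ cells (exact two-sided permutation p = 0.2) and 0.43 in CD25+ cells (exact p = 0.2), and CD49b+ exceeded CD25+ by 0.40 (exact p = 0.1). Injected and naive CD4+ cells differed by -0.16 (exact p = 0.333). Each of these 4 p-values is the smallest the number of arrays allows, so that none could reach 0.05.

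**Figure D2:**
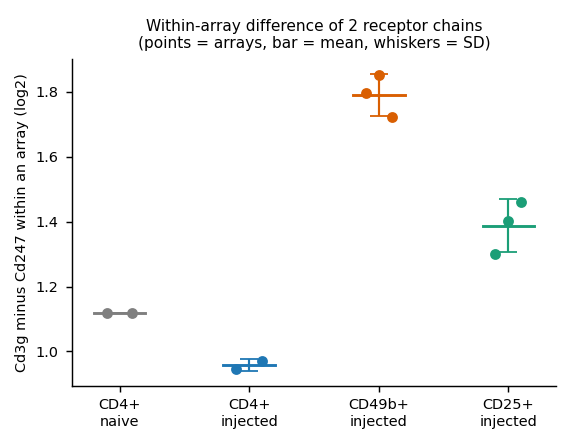
Cd3g minus Cd247 on the log2 scale within each array (vertical axis), by group, with the mean as a bar and the SD as whiskers. The CD49b+ arrays lie between 1.72 and 1.85, the CD25+ arrays between 1.30 and 1.46, and the 4 CD4+ arrays between 0.95 and 1.12.

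Cd4, whose protein was used to sort every group, read 8.02, 7.82 and 7.83 in CD49b+ cells against 7.55 and 7.54 in CD4+ cells of injected mice. Every CD49b+ array was also above the 7.72 of naive mice. The difference of 0.34 ± 0.10 (adjusted p = 0.0184, limma) lost its call without the first CD49b+ array (0.28, adjusted p = 0.0564), without the first or the second CD4+ array of injected mice (adjusted p = 0.0764 and 0.0753), as the mean of both Cd4 probe sets (0.14, adjusted p = 0.19) and with arrays centred on the genes tested (0.15, adjusted p = 0.162).

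The remaining members gave smaller differences between CD49b+ and CD4+ cells. Cd3d differed by -0.15 ± 0.07 (adjusted p = 0.103), Cd8a by -0.23 ± 0.10 (0.0779), Cd3e by 0.16 ± 0.12 (0.279), Zap70 by 0.12 ± 0.09 (0.319) and Lat by 0.08 ± 0.09 (0.452), all from limma. The groups did not overlap for 6 of 8 members, beside 70.3% of all genes. With arrays centred on their medians 6 members passed in place of 3, among them Lat (0.27, adjusted p = 0.0198), and Cd3d turned to 0.04. That centring gave 5 higher and 1 lower, in place of 2 and 1 as deposited. Quantile normalization gave 1 higher and 2 lower, and centring on the genes tested 0 higher and 3 lower. The direction of the member calls other than Cd247 thus turns with the scaling. The array medians given above also separate the CD49b+ arrays from the CD4+ arrays of both injected and naive mice. The Gapdh difference separates them from the arrays of naive mice. It overlaps between CD49b+ arrays (0.23 to 0.69) and CD4+ arrays of injected mice (0.13 to 0.26).

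CD25+ cells were set against CD4+ cells of injected mice in the same way. Cd247 was 1.35-fold lower in CD25+ cells and Cd3d 1.17-fold lower, while Cd3g, Cd4, Zap70 and Cd3e differed by at most 0.04 on their main probe sets. The dimmer Cd4 probe set, described below, was lower by -0.45. These are 2 of 8 members, where 38.6% of all genes were called (20.8% higher and 17.8% lower). Members had a median absolute difference of 0.11 against 0.25 over all genes, and 7 of 8 were under that all-gene median. This comparison shares its CD4+ arrays with the one before, so the Cd247 differences in both subsets are not independent of each other. The array medians separate CD25+ arrays from CD4+ arrays of injected mice, and so does the Gapdh difference (0.37 to 0.60 against 0.13 to 0.26). The part of RNA quality in these differences was not tested.

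Cd247 read 9.91, 9.96 and 9.90 in CD25+ cells, below all 4 CD4+ arrays. The difference from CD4+ cells of injected mice was -0.43 ± 0.07 (adjusted p = 0.00117, limma; 95% interval -0.59 to -0.27), which leaves 74.2% of the CD4+ level. It kept its call in 12 of 12 alternative settings and with each of the 10 arrays left out, between -0.58 and -0.27. Of all tested genes, 1540 (14%) were called lower in both subsets, as Cd247 was.

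Cd3d read 12.08 and 12.11 in CD4+ cells of injected mice and 11.82, 11.87 and 11.90 in CD25+ cells. Every CD25+ array was lower, and the CD49b+ arrays, at 11.97, 11.96 and 11.91, fell just above the CD25+ ones. The difference from CD4+ cells was -0.23 ± 0.07 (adjusted p = 0.0284, limma). The call was lost without the first or second CD4+ array of injected mice (adjusted p = 0.0933 and 0.131), without the first or second CD25+ array (0.0601 and 0.053), when only the arrays compared were fitted (0.102), and with arrays centred on their medians (-0.07, adjusted p = 0.441).

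Cd3g differed between CD25+ and CD4+ cells by -0.00 ± 0.08 (adjusted p = 0.994), with a 95% interval of -0.18 to 0.18. Zap70 differed by 0.00 ± 0.09 (0.986; interval -0.21 to 0.21) and Cd4, on its main probe set, by 0.04 ± 0.10 (0.778; interval -0.19 to 0.27). Lat differed by -0.18 ± 0.09 (adjusted p = 0.131) and Cd8a by -0.23 ± 0.10 (0.0956), again from limma. The groups did not overlap for 4 of 8 members, beside 58.9% of all genes. One CD25+ array stood apart for Cd3e, at 9.20 against 9.57 and 9.58 on the other two, and without it the difference of -0.02 became 0.11 (adjusted p = 0.357).

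**Figure D3:**
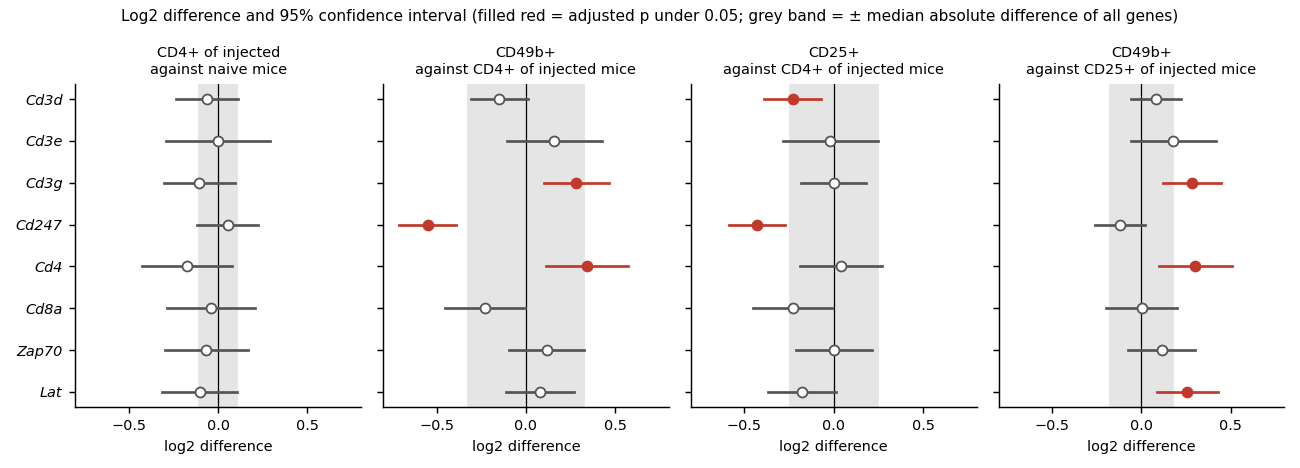
Log2 difference of each tested member (horizontal axis) with its 95% confidence interval in the 4 comparisons, filled where the adjusted p is under 0.05, over a grey band of plus and minus the median absolute difference of all genes. Cd247 at -0.55 and -0.43 lies outside the band in both comparisons of a subset with CD4+ cells, and every interval spans 0 in the comparison of injected and naive mice.

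The subsets were then compared with each other, which leaves the CD4+ groups out of the difference. Cd3g was 1.22-fold, Cd4 1.23-fold and Lat 1.19-fold higher in CD49b+ than in CD25+ cells, and Cd247 did not pass. These are 3 of 8 members, all higher in CD49b+ cells, where 29.9% of all genes were called (17.5% higher and 12.4% lower). The median absolute difference of the members was 0.15 against 0.18 over all genes.

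Lat, the scaffold that Zap70 phosphorylates, read 10.99, 11.07 and 10.92 in CD49b+ cells and 10.75, 10.77 and 10.69 in CD25+ cells. Every CD49b+ array was higher, and both arrays of CD4+ cells of injected mice, at 10.83 and 11.00, were above the CD25+ ones. Lat differed by 0.26 ± 0.08 (adjusted p = 0.0301, limma). It was no longer called without the first or second CD49b+ array (adjusted p = 0.0647 and 0.0998), without CD25+ array 1 or 3 (0.0655 and 0.0825), with only the arrays compared (0.0535), with arrays centred on the genes tested (0.21, adjusted p = 0.0644) or without the 2 arrays of high poly-A signal (0.27, adjusted p = 0.0834).

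Cd3g read 11.21, 11.37 and 11.36 in CD25+ cells, below the CD49b+ range of 11.54 to 11.63. The difference of 0.28 ± 0.07 (adjusted p = 0.0154, limma) lost its call without the first CD25+ array (0.23, adjusted p = 0.0512) and kept it in 11 of 11 other settings. Cd4 read 7.64, 7.71 and 7.41 in CD25+ cells, also below the CD49b+ arrays, with the third array lowest. Its difference of 0.30 ± 0.09 (adjusted p = 0.0326, limma) was lost when CD49b+ array 1 or 3 (0.107 and 0.0527), CD25+ array 1 or 3 (0.0543 and 0.0988) or either array of naive mice (0.0534 for each) was left out. It was also lost with only the arrays compared (0.0771) and without the 2 arrays of high poly-A signal (0.24, adjusted p = 0.11).

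Cd247 differed between the subsets by -0.12 ± 0.06 (adjusted p = 0.191, limma; 95% interval -0.26 to 0.02), so that the zeta chain was lower than in CD4+ cells in both subsets without a called difference between them. Cd3e differed by 0.18 ± 0.11 (0.246), Zap70 by 0.11 ± 0.08 (0.357), Cd3d by 0.08 (0.385) and Cd8a by 0.00. Between the subsets, 5 of 8 members did not overlap, beside 41.6% of all genes.

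Cd247, Cd4 and Cd8a had more than 1 probe set, and these did not always agree. For Cd247, 1426396_PM_at gave the values above. The next brightest, 1452539_PM_a_at, read 8.68 and 8.78 in CD4+ cells of injected mice, 7.70, 8.27 and 8.08 in CD49b+ cells and 7.88, 8.07 and 7.92 in CD25+ cells. Both subsets lay below the CD4+ arrays on it too. In a limma fit over every probe set it was lower by -0.72 ± 0.15 in CD49b+ cells (adjusted p = 0.00436) and by -0.77 ± 0.15 in CD25+ cells (adjusted p = 0.00468), where 27.6% and 19.7% of probe sets were called lower. The third, 1420716_PM_at, differed by -0.31 ± 0.15 (adjusted p = 0.124) and -0.09 ± 0.15 (0.695) and was not called. The fourth, 1426079_PM_at, was too dim to test.

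The 2 Cd4 probe sets went apart. On 1427779_PM_a_at, dimmer than the 1419696_PM_at used above, Cd4 read 5.77 and 5.64 in naive mice, 5.29 and 5.41 in CD4+ cells of injected mice, 5.33, 5.28 and 5.28 in CD49b+ cells and 4.96, 4.98 and 4.79 in CD25+ cells. The CD25+ arrays lay below all others on it, which 1419696_PM_at did not show. Injected mice differed from naive mice on it by -0.35 ± 0.10 (adjusted p = 0.211; 95% interval -0.57 to -0.13), wider than the -0.17 of the brighter probe set and not called. CD25+ cells differed from CD4+ cells of injected mice by -0.45 ± 0.09 (adjusted p = 0.00517, limma), while CD49b+ cells differed by -0.06 ± 0.09 (0.602) in place of the 0.34 of the brighter probe set. Both probe sets put CD49b+ above CD25+ cells, by 0.39 ± 0.08 on the dimmer one (adjusted p = 0.00841, where 22.9% of probe sets were called) and 0.30 on the brighter. The other Cd8a probe sets, 1451673_PM_at and 1444078_PM_at, were too dim to test.

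**Figure D4:**
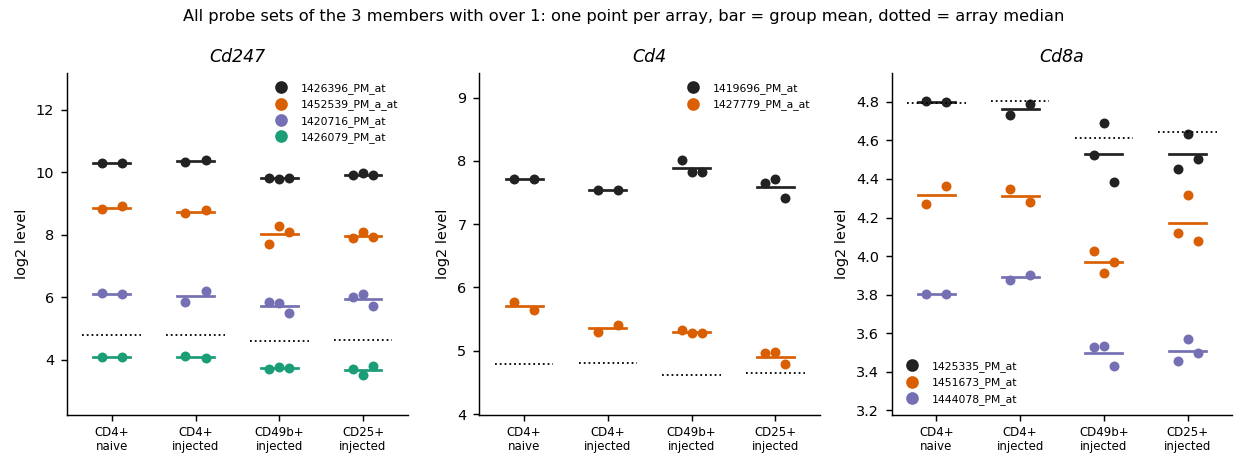
Log2 level of every probe set of Cd247, Cd4 and Cd8a on each array (vertical axis), by group, with group means as bars and array medians dotted. The 2 brightest Cd247 probe sets both drop in CD49b+ and CD25+ cells, whereas the dimmer Cd4 probe set shows no rise in CD49b+ cells and reaches its lowest values, 4.79 to 4.98, in CD25+ cells.

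Around these members, lists of genes of the same pathway were read from the same limma fit. They were not picked by how they moved, though earlier results of these data were known when they were written. In CD4+ cells of injected against naive mice, where 1.39% of all tested genes were called, these lists held 1 call: Cd82, a tetraspanin, differed by -0.52 ± 0.09 (adjusted p = 0.029). That call was lost without either array of naive mice, the first CD4+ array of injected mice or the first CD49b+ array (adjusted p up to 0.341), and with arrays centred on the genes tested.

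Of the other Src, Tec and Syk family kinases listed, 4 of 6 genes with a probe set were tested, and 3 of the 4 were lower in CD49b+ than in CD4+ cells, where 23.5% of all genes were, and 0 were higher. Txk, a Tec family kinase of T cells, differed by -1.97 ± 0.21 (adjusted p = 5.62e-05), Tec by -1.40 ± 0.09 (2.72e-06) and Fgr, a Src family kinase, by -0.91 ± 0.11 (9.69e-05). Fyn, the Src family kinase that shares the work of Lck, differed by -0.19 ± 0.09 (adjusted p = 0.0997). After quantile normalization and with arrays centred on the genes tested, 4 of 4 were called lower in CD49b+ cells, Fyn included. With arrays centred on their medians the count stayed at 3. In CD25+ cells 3 of 4 were lower as well, beside 17.8% of all genes: Txk by -0.93 ± 0.21 (adjusted p = 0.00663), Fgr by -0.74 ± 0.11 (0.000529) and Tec by -0.55 ± 0.09 (0.00135), with Fyn at -0.02. The Txk call in CD25+ cells was lost without the first CD4+ array of injected mice (adjusted p = 0.0715). Fgr was dim, with group means of 5.54 in injected CD4+ cells, 4.63 in CD49b+ and 4.79 in CD25+ cells. The subset means lay near the array medians there (4.61 to 4.65), so the size of its differences is uncertain. Txk and Tec were also lower in CD49b+ than in CD25+ cells, by -1.04 ± 0.19 (adjusted p = 0.00252) and -0.85 ± 0.08 (5.35e-05). The members Zap70 and Lat had no call against CD4+ cells in either subset.

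Of 25 tested regulators of Lck and Zap70, 14 were higher and 4 lower in CD49b+ than in CD4+ cells, beside 29.9% and 23.5% of all genes, with a median log2 difference of 0.50 against 0.03 over all genes. Rnf128, a ubiquitin ligase linked to T cell anergy, differed by 1.65 ± 0.12 (adjusted p = 5.42e-06), Unc119, an activator of Src family kinases, by 1.56 ± 0.12 (9.71e-06), the phosphatase gene Ubash3b by 1.25 ± 0.08 (2.95e-06) and the adaptor gene Dok2 by 1.24 ± 0.10 (1.22e-05). Group means of Rnf128 were 4.46 in naive and 4.09 in injected CD4+ cells, 4.38 in CD25+ cells and 5.74 in CD49b+ cells. Only the CD49b+ mean lay above the array medians, so its calls rest on the group where it is high. The count was 12 higher and 5 lower with arrays centred on the genes tested and 18 and 1 with arrays centred on their medians. In CD25+ cells 7 of 25 were higher and 2 lower, beside 20.8% and 17.8% of all genes, led by Cish (1.48 ± 0.15), a suppressor of cytokine and receptor signalling, Unc119 (1.16 ± 0.12), Sla (0.93 ± 0.09), an adaptor that lowers receptor levels, and Dok1 (0.78 ± 0.10). Between the subsets 8 were higher in CD49b+ cells and 3 lower, beside 17.5% and 12.4% of all genes, led by Rnf128 (1.36 ± 0.11), Ubash3b (1.21 ± 0.07), Dok2 (1.02 ± 0.09) and Pag1 (0.94 ± 0.12), the membrane anchor of the Lck inhibitor Csk. Ptprc, the phosphatase CD45 that opens Lck, was not called in any comparison, at -0.01 in CD49b+ and 0.01 in CD25+ cells.

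Of 26 tested adaptors and enzymes that join Lat, 10 were higher and 3 lower in CD49b+ than in CD4+ cells, a share of 50% called that is close to the 53.4% of all genes. Nck2, an adaptor to the cytoskeleton, differed by 1.39 ± 0.11 (adjusted p = 8.61e-06), Hcls1 by 0.86 ± 0.08, Lcp2, which encodes the adaptor SLP-76, by 0.68 ± 0.07 and Gab2 by -0.61 ± 0.10. In CD25+ cells 4 were higher and 6 lower, or 38.5% called beside 38.6% of all genes. Themis, a T cell protein that tunes receptor signals, had the greatest difference at -1.95 ± 0.20 (adjusted p = 7.55e-05), followed by Vav3 (0.63 ± 0.17), Lcp2 (0.54 ± 0.07) and Trat1 (-0.52 ± 0.17), whose product binds the receptor complex. The Vav3 call was lost without either CD4+ array of injected mice (adjusted p up to 0.0734). The Trat1 call was lost without any 1 of 6 arrays (both of naive mice, both CD4+ of injected mice, and CD25+ arrays 1 and 3; adjusted p up to 0.185) and with arrays centred on their medians. Between the subsets 11 were higher in CD49b+ cells and 1 lower, beside 17.5% and 12.4% of all genes, with Themis at 1.85 ± 0.18, Nck2 at 1.35 ± 0.10, Trat1 at 0.76 ± 0.15 and Grb2 at 0.68 ± 0.10. Their median between the subsets was 0.20, against 0.03 over all genes. With arrays centred on their medians the counts against CD4+ cells were 17 higher and 1 lower in CD49b+ and 8 and 3 in CD25+ cells, and with arrays centred on the genes tested 7 and 5, and 4 and 10, so that the balance in CD25+ cells turns with the scaling.

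The 32 tested genes further downstream split in both directions: 11 higher and 8 lower in CD49b+ cells, and 7 higher and 8 lower in CD25+ cells. These are 59.4% and 46.9% of the list, beside 53.4% and 38.6% of all genes called. With arrays centred on the genes tested these counts were 7 and 15, and 5 and 12, and with arrays centred on their medians 14 and 3, and 11 and 3, so that no overall direction can be read. In CD49b+ cells the calcineurin subunit genes Ppp3ca and Ppp3cc differed by 1.29 ± 0.10 and 1.22 ± 0.12, Nfatc2, a transcription factor that calcineurin activates, by -0.61 ± 0.09 and the kinase gene Mapk8 by -0.59 ± 0.15. The Mapk8 call was lost without the second CD4+ array of injected mice (adjusted p = 0.0571) and with arrays centred on their medians. In CD25+ cells Malt1, a protease of the NF-kB branch, differed by -0.91 ± 0.31, Prkca by 0.83 ± 0.14, the calcium sensor gene Stim2 by 0.64 ± 0.10 and the calcium channel gene Orai2 by -0.63 ± 0.09. The Malt1 call was lost without any 1 of 6 arrays (both of naive mice, both CD4+ of injected mice, and CD25+ arrays 2 and 3; adjusted p up to 0.174) and with arrays centred on their medians. Between the subsets 11 were higher in CD49b+ cells and 9 lower, or 62.5% called beside 29.9% of all genes. The greatest differences were those of Malt1 (1.34 ± 0.28), Ppp3cc (1.33 ± 0.11), Prkca (-1.09 ± 0.13) and Nras (0.81 ± 0.08).

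Surface receptors that modulate the complex were higher in CD49b+ cells for 11 of 15 tested genes and lower for 1, beside 29.9% and 23.5% of all genes. Cd44, a receptor for hyaluronan carried by activated and memory T cells, differed by 1.89 ± 0.15 (adjusted p = 9.81e-06), Cd82 by 1.17 ± 0.09 (5.42e-06), Thy1 by 1.06 ± 0.14 (0.00022) and the costimulatory receptor gene Cd226 by 0.97 ± 0.10 (3.48e-05). In CD25+ cells 7 were higher and 1 lower, beside 20.8% and 17.8% of all genes, with Cd44 at 1.51 ± 0.15, Cd82 at 1.14 ± 0.09, Slamf1 at 0.99 ± 0.13 and Cd226 at 0.82 ± 0.10. Between the subsets 6 were higher in CD49b+ cells and 2 lower, beside 17.5% and 12.4% of all genes, led by Spn (1.01 ± 0.10), which encodes CD43, Thy1 (1.00 ± 0.13), Cd27 (-0.92 ± 0.08) and Slamf6 (0.48 ± 0.14). With arrays centred on the genes tested, 8 were higher and 2 lower in CD49b+ cells and 7 and 3 in CD25+ cells. The Slamf6 call was lost without CD49b+ array 1 or 3 or CD25+ array 1 or 2 (adjusted p up to 0.0902). On the main probe sets, the greatest difference of any member in any comparison was the 0.55 of Cd247.

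**Figure D5:**
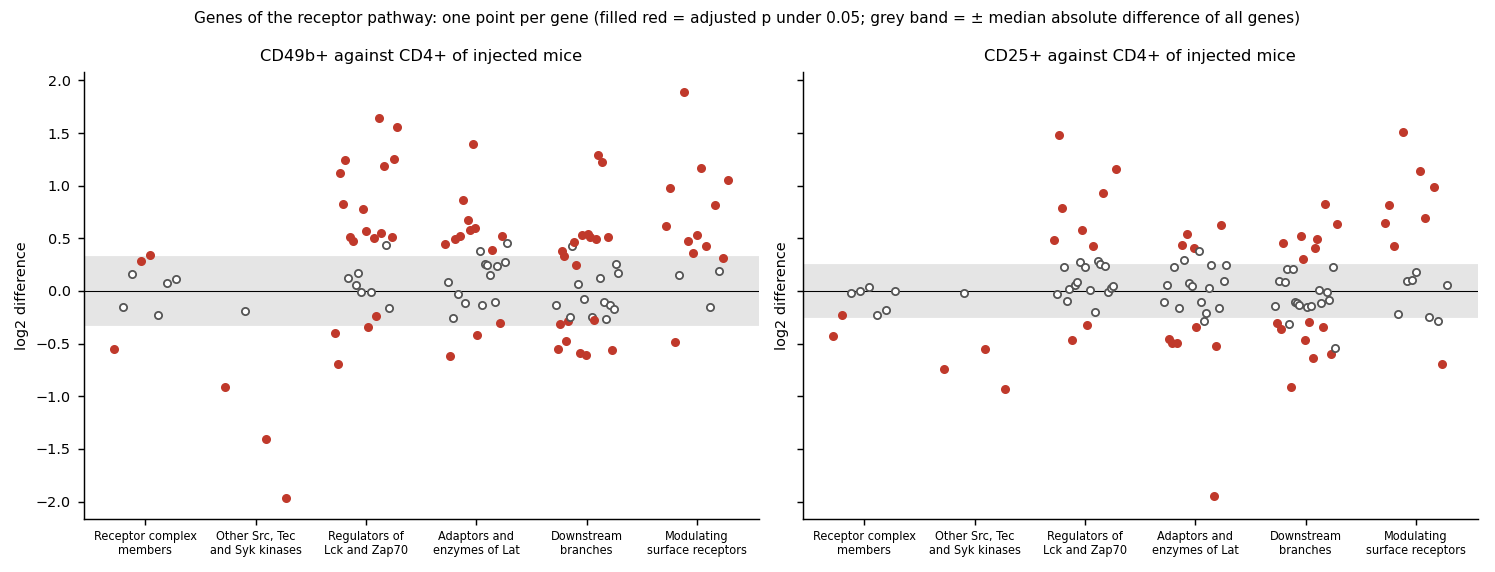
Log2 difference of every tested gene of the members and 5 pathway lists (vertical axis) in CD49b+ and CD25+ cells against CD4+ cells of injected mice, filled where the adjusted p is under 0.05, over a grey band of plus and minus the median absolute difference of all genes. The members stay between -0.55 and 0.34, while genes of the other lists reach from -1.97 to 1.89.

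Markers of other cell types moved with some of these comparisons, and their part in the results was not tested. The summed unlogged signal of 9 natural killer markers ranged from 619 to 723 on arrays of naive mice, from 376 to 414 in CD4+ cells of injected mice, from 407 to 628 in CD49b+ cells and from 360 to 498 in CD25+ cells. Such a sum rests mainly on its bright probe sets and hid opposite changes here. Of 6 tested natural killer markers, 2 were higher and 3 lower in CD49b+ than in CD4+ cells, and 3 higher and 3 lower in CD25+ cells. This is 83.3% and 100% of the tested markers, beside 53.4% and 38.6% of all genes called. In CD49b+ cells Gzma, a granzyme gene, differed by 3.97 ± 0.26 (adjusted p = 2.73e-06, limma), while the signalling adaptor gene Tyrobp differed by -1.81 ± 0.28, the perforin gene Prf1 by -1.10 ± 0.11 and Eomes by -0.91 ± 0.10. In CD25+ cells Fcer1g differed by 1.90 ± 0.28, Tyrobp by -1.57 ± 0.28, Gzma by 1.48 ± 0.26 and Prf1 by -1.11 ± 0.11. Between the subsets Fcer1g differed by -2.52 ± 0.25 and Gzma by 2.49 ± 0.23. The group means of Tyrobp were 8.37 in naive and 6.91 in injected CD4+ cells, well above the array medians. Group means of the natural killer receptor gene Ncr1 were 5.12 in CD49b+ cells and 5.20 in CD25+ cells, above 4.45 and 4.47 for CD4+ cells of naive and injected mice. Those of Gzma were 8.22 in CD49b+ and 5.72 in CD25+ cells, against 4.09 and 4.24 for CD4+ cells of naive and injected mice. For Ncr1 and Gzma the CD4+ means lay under the array medians and the subset means above them. Their calls against CD4+ cells rest on the groups where they are high.

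The 6 markers of CD8 T cells other than Cd8a and Cd8b1 summed to 799 to 825 on arrays of naive mice, 716 to 731 in CD4+ cells of injected mice, 880 to 1030 in CD49b+ and 461 to 528 in CD25+ cells. Here too the genes went apart. In CD49b+ cells Runx3 differed from CD4+ cells by 1.39 ± 0.13 and Klrk1 by 0.53 ± 0.12, while Crtam differed by -1.91 ± 0.16 and Eomes by -0.91 ± 0.10. With arrays centred on the genes tested Klrk1 lost its call. The list, with Cd8a counted, then held 1 higher and 3 lower, in place of 2 and 2 as deposited. In CD25+ cells Klrd1 differed by -1.84 ± 0.34, Crtam by -1.72 ± 0.16 and Eomes by -0.71 ± 0.10, and 0 were higher. With Cd8a counted, 66.7% and 50% of the tested list were called in CD49b+ and CD25+ cells, beside 53.4% and 38.6% of all genes. The members Cd8a and Cd8b1 had no call in either subset in the main fit, Cd8b1 being too dim to test.

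In the same order of groups, 12 myeloid markers summed to 652 to 781, 452 to 462, 341 to 357 and 465 to 586, and 8 B cell markers to 334 to 359, 232 to 257, 205 to 211 and 253 to 278. Of 8 tested myeloid markers 1 was higher and 4 lower in CD49b+ than in CD4+ cells (62.5% called beside 53.4% of all genes), with Cybb at -0.98 ± 0.18, Flt3 at -0.94 ± 0.11 and Itgax, which encodes CD11c, at -0.83 ± 0.10. In CD25+ cells 2 were higher and 3 lower (62.5% beside 38.6%), with Batf3 at 2.01 ± 0.20 and Itgax at -1.17 ± 0.10. In CD4+ cells of injected against naive mice 3 of the 8 were lower, beside 1.36% of all genes, led by Cybb (-1.27 ± 0.19) and Itgax (-1.12 ± 0.11). The Cybb call there was lost without the second array of naive mice or the first CD4+ array of injected mice (adjusted p up to 0.198). Of 4 tested B cell markers, Cd79b was higher in CD49b+ (0.96 ± 0.14) and CD25+ cells (1.53 ± 0.14), and 2 were lower in CD49b+ cells. For the B cell list this is 75% called in CD49b+ and 25% in CD25+ cells, beside 53.4% and 38.6% of all genes. Group means of Itgam, a myeloid integrin gene, were 3.55 to 3.76 and those of the platelet gene Pf4 5.06 to 5.27. The 10 T cell markers, among them the CD3 chains, summed to 17583 to 20385 over all arrays.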

How the data were processed

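RNA of sorted spleen cells was hybridised to Affymetrix 3′ arrays from 100 ng each, per the labels' protocols. The authors deposited log2 levels of 45141 probe sets. The submitters' processing notes name GCRMA (background correction, normalization and summary of probes) and version 1.2.1 of Affymetrix Expression Console. Joint normalization of the arrays is not stated, and differences in level between groups can depend on it. The 2 centrings and quantile normalization show how far.

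Control probe sets (104) were left out. The annotation named 1 symbol for 28898 probe sets and several for 551, which were not used, and 15588 are unnamed here. Genes were tested where at least 2 arrays exceeded the 50th percentile of their array (11037 genes), in 1 model of 4 group means over 10 arrays with 6 residual degrees of freedom, with limma 3.58.1 in R 4.3.3 and Benjamini-Hochberg adjustment at 0.05. Every probe set was fitted likewise. SE is limma's moderated standard error and intervals are 95%. The method was tested on simulated data.

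The text names all members, and of each pathway and lineage factor list up to 4 called genes with the greatest absolute difference per comparison. Marker lists of other cell types are given by sums and counts, with up to 4 called genes of the greatest difference. Genes of like pattern were to be named only for members spanning over 1 on the log2 scale, and 0 members did. The members, lists and tests were chosen with earlier results of these data known. Alternatives were other filters, scalings, probe set rules and models, each array left out, and a replicate block. Replicate numbers come from the labels. Deviations of same-numbered CD49b+ and CD25+ arrays correlated at 0.16, 0.37 and 0.64, the last for the 2 arrays of high poly-A signal. With same-numbered injected CD4+ arrays they correlated at 0.09 to 0.53. The main fit paired no arrays, and the numbers entered only through the replicate block. Motifs were counted in RefSeq promoters.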

Additional observations from a re-analysis of the deposited data

How the results depend on the processing

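Limits: with 2 or 3 arrays a group, the smallest called member difference was that of Cd3d (-0.23), and the scaling of the arrays moves differences of that size. Of the member results, 314 kept direction and call under alternatives other than leaving out an array, 11 lost a call, 14 gained one and 26, none of them called, changed sign. With an array left out these counts were 286, 19, 1 and 14. Cd247 kept its call in both comparisons of a subset with CD4+ cells in every alternative and with every array left out.

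The replicate block left the members called at 0, 3, 2 and 3 in the order of the report. Naive and injected CD4+ arrays share only a number, with deviations correlated at -0.21. There the block gave 377 called genes, a crossed block, chosen after seeing the data, 526, array weights 328 and the 2 groups alone 0 (1638 at an unadjusted p under 0.05), in place of 153. CD49b+ and CD25+ arrays share numbers 1 and 2 with the injected CD4+ arrays at 0.09 to 0.53, and the block changed no member call there. Leaving out an array gave 15 to 154 called genes.

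For CD49b+ against CD4+, members called were 6 with arrays centred on their medians, 5 with both CD4+ groups as comparator and 1 to 4 with an array left out, and 9123 genes were called without the filter on dim genes. With arrays centred on the genes tested 0 members were higher and 3 lower, in place of 2 and 1 as deposited. For CD25+ against CD4+, members called were 1 with arrays centred on their medians or only the arrays compared, 4 with both CD4+ groups or with arrays centred on the genes tested, and 1 to 2 with an array left out. Genes called there were 7583 without the filter, 2500 with the 70th percentile filter, and 2792 to 4174 with an array left out. For CD49b+ against CD25+, members called were 1 with only the arrays compared or without the 2 arrays of high poly-A signal, and 0 to 3 with an array left out.

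Changes of sign, in log2, for injected against naive mice: with arrays centred on the genes tested Cd3d read 0.041, Cd8a 0.064, Zap70 0.038 and Lat 0.0023, with arrays centred on their medians Cd3e read -0.012, and as the mean of probe sets Cd247 read -0.048. For CD49b+ against CD4+, Cd3d read 0.044 with arrays centred on their medians. Cd3e read -0.032, Zap70 -0.074 and Lat -0.11 with arrays centred on the genes tested, and Zap70 -0.0068 and Lat -0.060 after quantile normalization. For CD25+ against CD4+, arrays centred on their medians gave 0.14 for Cd3e and 0.16 for Cd3g. Array weights gave 0.0061 for Cd3g and the block 0.0011. Cd4 read -0.013 and Zap70 -0.084 after quantile normalization, -0.11 and -0.15 with arrays centred on the genes tested, and -0.045 and -0.031 with both CD4+ groups as comparator. Cd4 as a mean of probe sets read -0.20, and Zap70 without the 2 arrays of high poly-A signal -0.022. For CD49b+ against CD25+, Cd8a read -0.0043 with array weights and -0.039 with arrays centred on the genes tested.

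With an array left out, Cd3e ranged from -0.037 to 0.039 and Zap70 from -0.16 to 0.023 for injected against naive mice, and Lat from -0.0081 to 0.17 for CD49b+ against CD4+. For CD25+ against CD4+, Cd3e ranged from -0.084 to 0.11, Cd3g from -0.051 to 0.049, Cd4 from -0.018 to 0.13 and Zap70 from -0.087 to 0.092. Cd8a ranged from -0.077 to 0.075 between the subsets. The cause of these changes was not tested.

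The report gives the share of higher calls under both centrings for CD49b+ against CD4+. For CD25+ against CD4+ it was 53.9% as deposited, 78.6% with arrays centred on their medians and 31.1% on the genes tested. It was 2.0%, 1.8% and 13.1% for injected against naive mice.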

Other observations

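Among transcription factors that set the CD4 and CD8 lineages, and with them the use of the coreceptor genes, several had greater differences than any member. Of 13 tested, 3 were higher and 5 lower in CD49b+ than in CD4+ cells of injected mice, and 3 higher and 3 lower in CD25+ cells, all by limma with Benjamini-Hochberg adjustment. Over all genes 53.4% and 38.6% were called. With arrays centred on their medians the counts in CD49b+ cells were 4 higher and 2 lower, so the balance turns with the scaling. Tbx21, the T-bet gene of type 1 helper cells, rose by 3.81 ± 0.41 on the log2 scale in CD49b+ cells (adjusted p = 5.94e-05) and by 1.89 ± 0.41 in CD25+ cells (0.00551). Gata3, which helper cells of type 2 require, rose by 2.68 ± 0.14 (7.55e-07) and 1.25 ± 0.14 (0.00013). Lef1, a factor of naive T cells, fell by 2.57 ± 0.29 (7.78e-05) and 2.16 ± 0.29 (0.00038). Runx3, which represses Cd4 in CD8 T cells, was higher in CD49b+ cells by 1.39 ± 0.13 (2.19e-05), and in CD25+ cells it differed by 0.07 ± 0.13 (0.68). Zbtb7b, the gene of the CD4 lineage factor ThPOK, differed by -0.08 ± 0.10 (0.519) and -0.23 ± 0.10 (0.0878). Satb1, a chromatin organiser of T cells, fell by 0.91 ± 0.14 in CD25+ cells (0.000791). Between the subsets Tbx21 was higher in CD49b+ cells by 1.92 ± 0.37 (0.00343), Gata3 by 1.43 ± 0.13 (3.09e-05) and Runx3 by 1.32 ± 0.11 (2.63e-05), and Myb differed by -1.70 ± 0.21 (0.000256).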
